A study of Arabidopsis thaliana with 8 samples.

Results

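Steps of plastid pigment synthesis were compared between roots and leaves of wild-type Arabidopsis thaliana, ecotype Columbia 0. The 6 genes followed, on 5 probes, are those whose names the array's annotation gives as HEMA3 (AT2G31250), HEME1 (AT3G14930), HEME2 (AT2G40490), CHLM (AT4G25080), the geranylgeranyl reductase gene AT1G74470 and Z-ISO (AT1G10830), out of 2293 genes named on the array and 3439 probes in all. Of the 5 probes, 4 were annotated to 1 gene and 1 was annotated to both HEME1 and HEME2, so its signal cannot be assigned to either copy. Each tissue was measured on 4 arrays of total RNA, from material labelled as root and as leaves, with no treatment, plant age or growth condition in the labels. Each array gave 1 spot intensity per probe, on a relative linear scale from 0 to a ceiling just below 100.

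Tetrapyrroles are the ring molecules from which plants make chlorophyll, heme, siroheme and the light-sensing bilins. The plastid makes their precursor, 5-aminolevulinic acid, from glutamate bound to its transfer RNA, joins it into a ring, and then sends the ring either to chlorophyll, by insertion of magnesium, or to heme, by insertion of iron. Geranylgeranyl reductase makes the phytyl tail that anchors chlorophyll in the membrane and that is also used for tocopherol, while carotenoids are made from the same geranylgeranyl precursor in a separate branch. Roots in darkness make little chlorophyll but need heme and siroheme, and they make carotenoids as precursors of abscisic acid and strigolactones.

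The members did not move as a block. HEMA3 at the entry of the pathway, AT1G74470 at the phytyl branch and Z-ISO in carotenoid synthesis were higher in root after quantile normalisation, the sign for AT1G74470 turning when arrays were centred on their medians, while the HEME1 and HEME2 probe in the common trunk and CHLM in the chlorophyll branch were not separated between the tissues. Of the 5 probes, 3 were called higher in root, 0 were called lower and 2 did not pass the test (limma after quantile normalisation, Benjamini-Hochberg adjusted p below 0.05 over 3298 probes). Over all probes tested, 20.1% were called higher in root, 22.1% were called lower and 42.2% were called in either direction. On the deposited intensities 2 members, HEMA3 and Z-ISO, were called higher and 0 lower, where 34.5% of all probes were called higher, 14.9% lower and 49.4% in either direction. With arrays centred on their medians the same 2 genes were called higher and 0 lower, where the shares of all probes were 18% higher, 24.2% lower and 42.1% in either direction. The median log2 difference, root minus leaf, was 0.75 over the 5 members and 0.05 over all probes after quantile normalisation. It was 0.45 over the members and 0.80 over all probes as deposited, and -0.38 over the members and 0.03 over all probes with centred medians, so which of these medians was higher depended on the scaling. With 5 members, the count is a description of these probes and not of the pathway. Members are named by the annotation of their probes, and whether each probe measures the gene it is named for was not tested.

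**Figure D1:**
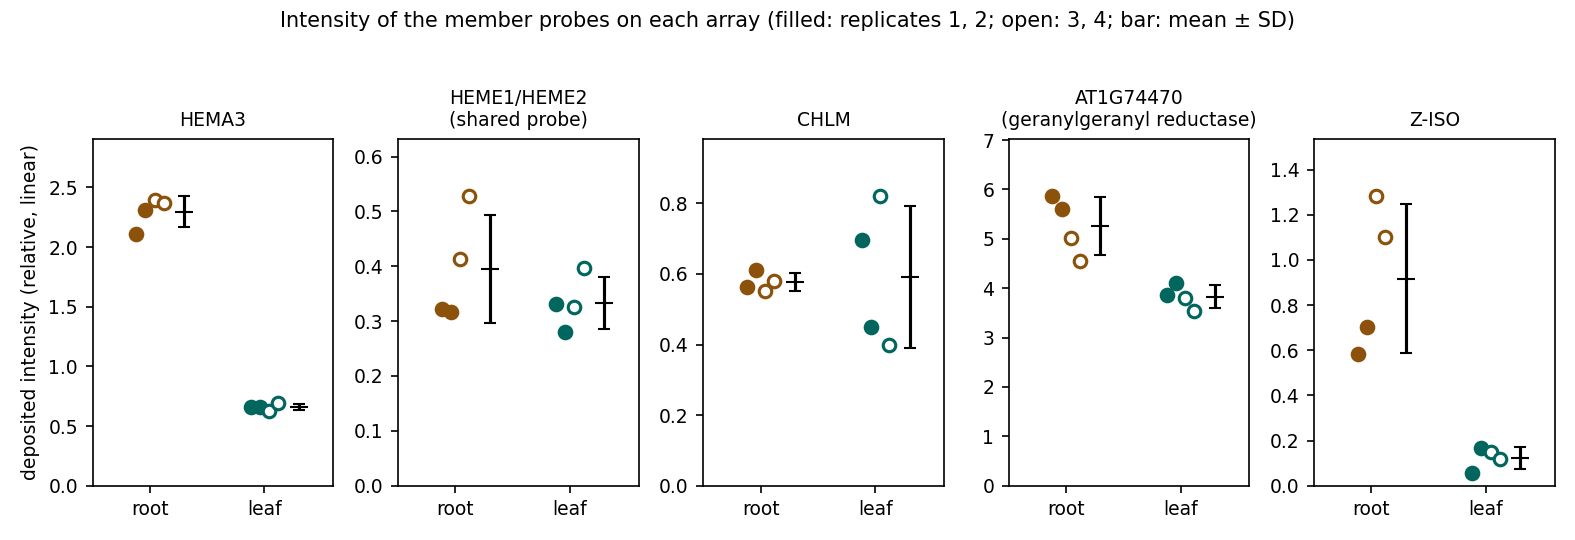
Deposited intensity (linear, relative units, axes from 0) of the 5 member probes in pathway order on each of the 4 root and 4 leaf arrays, with the mean and SD beside the points; filled points are replicates 1 and 2, open points replicates 3 and 4. Root points lie above all leaf points for HEMA3, AT1G74470 and Z-ISO, and the tissues overlap for the shared HEME1 and HEME2 probe and for CHLM.

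HEMA3 encodes a glutamyl-tRNA reductase, the enzyme that commits glutamate to tetrapyrrole synthesis. Its probe read 2.11, 2.31, 2.40 and 2.37 on the root arrays, against 0.657, 0.659, 0.628 and 0.690 on the leaf arrays. The lowest root array stood well above the highest leaf array, and within each tissue the 4 arrays lay close together, with a coefficient of variation of 5.63% in root and 3.90% in leaf. Mean intensity was 2.30 ± 0.129 in root and 0.659 ± 0.0257 in leaf (SD, n = 4 arrays each), which is 3.49 times as bright in root. The log2 difference after normalisation was 1.76 ± 0.19 (SE), with a 95% confidence interval of 1.30 to 2.21 (limma, adjusted p = 2.67e-04). It was 1.80 on the deposited intensities and 0.97 when arrays were centred on their medians, past the threshold each time (limma, adjusted p = 8.85e-05 and 5.42e-03). The better-known genes of the same enzyme, HEMA1, the light-regulated copy of green tissue, and HEMA2, which is also active in roots, had no probe under their names in the annotation, and whether their transcripts reach the HEMA3 probe was not tested.

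HEME1 and HEME2 encode uroporphyrinogen decarboxylase, which trims the first ring intermediate on the way to both chlorophyll and heme. The shared probe read 0.322, 0.317, 0.414 and 0.528 in root, against 0.331, 0.281, 0.325 and 0.396 in leaf. The tissues overlapped, and in root replicates 3 and 4 were both brighter than replicates 1 and 2. Mean intensity was 0.395 ± 0.0987 in root and 0.333 ± 0.0476 in leaf (SD, n = 4 each). The log2 difference was -0.35 ± 0.30 after normalisation, with an interval from -1.06 to 0.36, and did not pass (limma, adjusted p = 0.390). Its sign depended on the scaling, at 0.23 on the deposited intensities.

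CHLM encodes the methyltransferase that acts on magnesium protoporphyrin, just after magnesium enters the ring and the pathway turns to chlorophyll. The probe read 0.564, 0.613, 0.553 and 0.579 in root, against 0.697, 0.450, 0.820 and 0.398 in leaf. Root arrays were nearly alike and sat inside the range of the leaf arrays, of which replicates 1 and 3 were the brighter pair. The coefficient of variation was 4.52% in root and 33.9% in leaf, and the means were 0.577 ± 0.0261 in root and 0.591 ± 0.201 in leaf (SD, n = 4 each). The log2 difference of -0.36 ± 0.26, with an interval from -0.98 to 0.26, did not pass (limma, adjusted p = 0.306), and was 0.03 on the deposited intensities and -0.80 with centred medians.

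AT1G74470 encodes geranylgeranyl reductase, which reduces the geranylgeranyl chain to the phytyl chain of chlorophyll and tocopherol. It read 5.86, 5.61, 5.02 and 4.56 in root, against 3.85, 4.11, 3.80 and 3.54 in leaf. All root arrays were above all leaf arrays, and in both tissues the mean of replicates 1 and 2 was above that of replicates 3 and 4. Mean intensity was 5.26 ± 0.587 in root and 3.83 ± 0.232 in leaf (SD, n = 4 each), or 1.38 times as bright in root. The log2 difference was 0.75 ± 0.16 after normalisation, with an interval from 0.39 to 1.12 (limma, adjusted p = 6.30e-03). This call rested on the scaling and on the replicates being counted singly. When replicates were averaged within the subsets of replicates 1 and 2 and of replicates 3 and 4, the same difference did not pass (limma, adjusted p = 0.171). Under other scalings, the log2 difference was 0.45 on the deposited intensities, where it did not pass (limma, adjusted p = 0.0610), and -0.38 with centred medians, where it did not pass either (limma, adjusted p = 0.140). It was 0.47 and passed when arrays were scaled to a common mean (limma, adjusted p = 0.0312). The median over all tested probes of the root minus leaf log2 difference was 0.80 on the deposited intensities. AT1G74470 was thus brighter in root by less than the median probe was.

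Z-ISO encodes 15-cis-zeta-carotene isomerase, an early step of carotenoid synthesis that replaces in the dark an isomerisation which light can also drive. The probe read 0.583, 0.701, 1.28 and 1.10 in root, against 0.0571, 0.168, 0.151 and 0.120 in leaf. Every root array was above every leaf array, and root replicates 3 and 4 were the brighter ones. Mean intensity was 0.917 ± 0.330 in root and 0.124 ± 0.0489 in leaf (SD, n = 4 each), or 7.39 times as bright in root, the widest ratio among the members. The log2 difference was 2.20 ± 0.45 after normalisation, with an interval from 1.15 to 3.26 (limma, adjusted p = 5.78e-03). It stayed between 2.09 and 2.94 under the other scalings, and it did not pass when replicates were averaged within the subsets of replicates 1 and 2 and of replicates 3 and 4 (limma, adjusted p = 0.0768).

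On the deposited intensities, root and leaf arrays did not overlap at 3 of the 5 members, each time with root above leaf. Among all 3439 probes the tissues did not overlap at 49.3%, and root lay above leaf at 34.3%. None of the 5 probes was listed at 0 on any array. In bulk tissue, a difference in the share of cells that express a gene and a difference in RNA per cell cannot be told apart.

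Replicates 1 and 2 differed from replicates 3 and 4 in summed intensity in both tissues, a split that the labels do not explain. The sums were 3479 and 3505 against 2868 and 2923 in root, and 3400 and 3426 against 3021 and 3068 in leaf. Correlations between arrays showed the split in root and only in part in leaf. Leaf replicates 3 and 4 correlated at 0.798, the highest of the leaf pairs. Leaf replicates 1 and 2 correlated at 0.758, below the 0.764 between leaf replicates 2 and 4. For HEMA3 the ratio of root over leaf mean intensity was 3.36 in replicates 1 and 2 and 3.61 in replicates 3 and 4. For AT1G74470 these ratios were 1.44 and 1.30. Both probes were higher in root within each subset after normalisation, by 1.56 and 1.95 on the log2 scale for HEMA3 (limma, adjusted p = 7.21e-03 and 5.07e-03) and by 0.73 and 0.78 for AT1G74470 (limma, adjusted p = 0.0251 and 0.0280). With the replicates of each subset averaged, 1 member, HEMA3, was called higher in root. The share of all probes called in that setting was not taken, so the count describes these probes only. Z-ISO had ratios of 5.70 and 8.80, and its normalised difference was 1.55 in replicates 1 and 2, which did not pass (limma, adjusted p = 0.116), and 2.86 in replicates 3 and 4 (limma, adjusted p = 8.55e-03). The shared HEME1 and HEME2 probe stood at -0.75 in replicates 1 and 2 (limma, adjusted p = 0.0374) and at 0.05 in replicates 3 and 4 (limma, adjusted p = 0.894). CHLM did not pass in either subset, at -0.47 and -0.25. Whether the differences changed between the subsets was not tested.

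**Figure D2:**
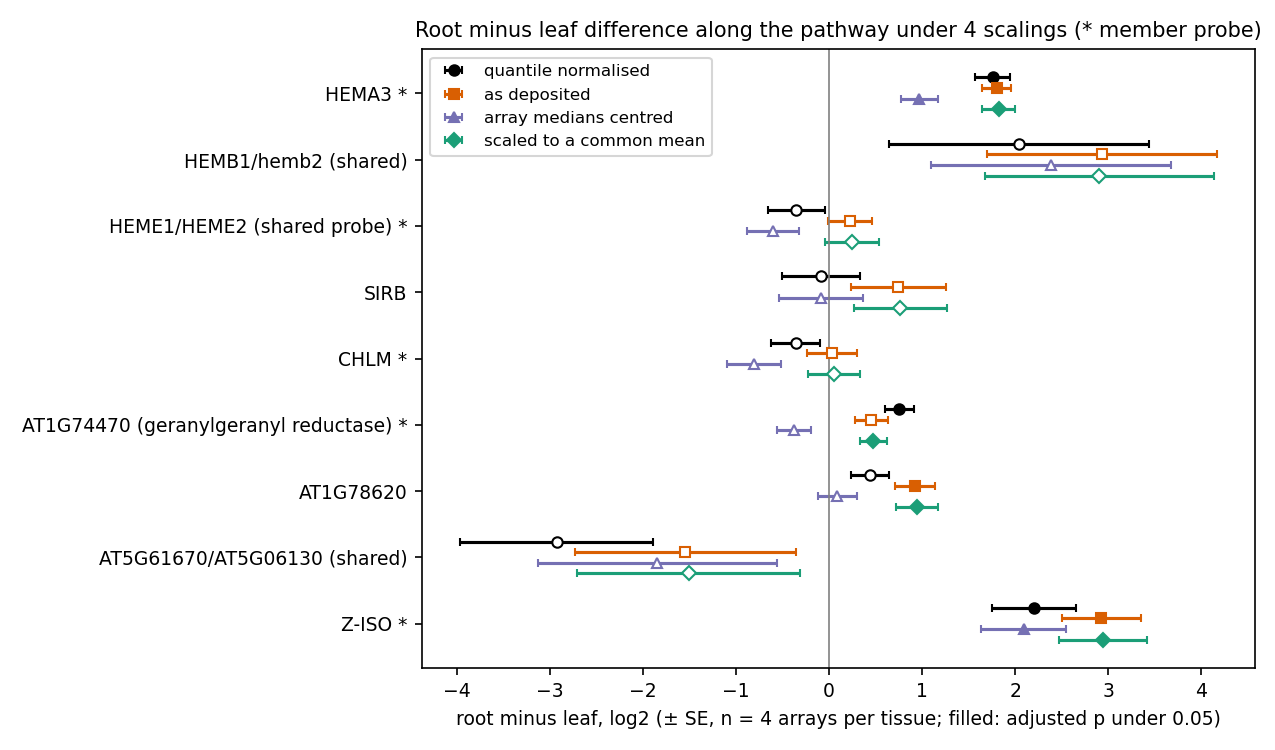
Root minus leaf difference on the log2 scale with its SE (n = 4 arrays per tissue) for the 5 member probes, marked with an asterisk, and 4 further probes of the pathway, from the entry of tetrapyrrole synthesis at the top to carotenoid synthesis at the bottom, under 4 scalings; filled symbols passed the adjusted threshold. HEMA3 and Z-ISO lie right of 0 and are filled under each scaling, AT1G74470 lies left of 0 with centred medians, and CHLM and the shared HEME1 and HEME2 probe change side.

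The place of each member among the probes of its own array does not depend on a scaling factor between arrays. HEMA3 stood at percentile 94.7 ± 1.11 in root and 80.5 ± 1.02 in leaf (SD, n = 4 each). Z-ISO stood at 80.3 ± 10.6 in root and 43.8 ± 7.79 in leaf, the largest shift of the members at 36.4 percentile points. AT1G74470 was among the brightest probes in both tissues, at 97.9 ± 0.133 in root and 96.5 ± 0.286 in leaf, and its ranks did not overlap between the tissues. For each of these 3 probes the two-sided exact permutation test over 70 relabelings gave p = 0.0286, the smallest it can give, and an adjusted p of 0.0476 over the 5 members. Quantile normalisation sets each value from its rank within the array. The rank test is therefore no check apart from the normalised fit. The share of all probes whose ranks separated the tissues was not taken, so the count of 3 is not read as a trait of the members. The shared HEME1 and HEME2 probe, at 59.5 ± 11.0 in root and 66.4 ± 2.92 in leaf, and CHLM, at 71.8 ± 2.97 in root and 77.2 ± 6.74 in leaf, overlapped between the tissues (exact permutation test, adjusted p = 0.343 and 0.321). Ranks of different probes depend on how each probe hybridises, so they give no order of transcript levels between genes.

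**Figure D3:**
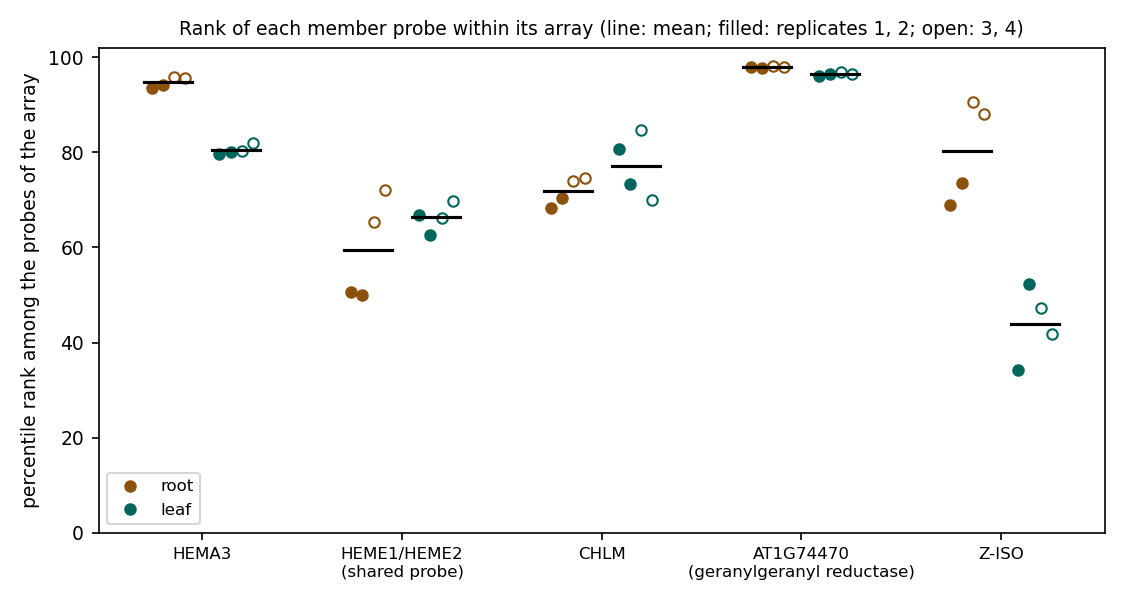
Percentile rank of each member probe among the 3439 probes of its array, for 4 root and 4 leaf arrays, with the mean of each tissue as a line; filled points are replicates 1 and 2, open points replicates 3 and 4. Z-ISO averaged 80.3 in root and 43.8 in leaf, HEMA3 averaged 94.7 in root and 80.5 in leaf, and CHLM and the shared HEME1 and HEME2 probe overlapped between the tissues.

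Whether the members differed from each other was tested with the log2 ratio of 2 probes within the same array, which any factor common to an array leaves unchanged. Of 10 pairs, 7 differed between the tissues without overlap of the arrays (two-sided exact permutation tests over 70 relabelings, p = 0.0286 each, adjusted p = 0.0408 over the 10 pairs). Among all pairs of the probes tested, 44.1% did not overlap in this ratio between the tissues, so the count is no trait of the members. The ratio of HEMA3 to CHLM was 1.77 higher in root on the log2 scale, at 1.99 ± 0.102 in root and 0.22 ± 0.547 in leaf (SD, n = 4 each). HEMA3 also stood higher in root relative to the shared HEME1 and HEME2 probe, by 1.58, and to AT1G74470, by 1.35. Each of the other 4 members stood lower in root relative to Z-ISO. The log2 ratio to Z-ISO differed, root minus leaf, by -2.90 for CHLM, -2.70 for the shared HEME1 and HEME2 probe, -2.47 for AT1G74470 and -1.12 for HEMA3. The last of these was -0.45 on quantile normalised values and did not pass there (exact permutation test, adjusted p = 0.317).

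The other 3 pairs, among CHLM, AT1G74470 and the shared HEME1 and HEME2 probe, did not pass. For CHLM over AT1G74470 the log2 ratio was -3.18 ± 0.164 in root and -2.76 ± 0.493 in leaf, a difference of -0.43 (exact permutation test, adjusted p = 0.214). On quantile normalised values that difference was -1.11 and passed (exact permutation test, adjusted p = 0.0357). The shared HEME1 and HEME2 probe differed by -0.23 against AT1G74470, which became -1.10 and passed on quantile normalised values (exact permutation tests, adjusted p = 0.508 and 0.0357), and by 0.20 against CHLM (exact permutation test, adjusted p = 0.600).

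The pathway lists held 94 genes, from 5-aminolevulinic acid to chlorophyll, heme, siroheme, tocopherol and carotenoids, with chlorophyll breakdown and carotenoid cleavage. Only 11 of them had a probe, on 9 probes, of which 3 were called higher in root, 0 lower and 6 did not pass. The 3 called are the members already described. Lists for chlorophyll breakdown (11 genes), plastid isoprenoid precursors (10 genes) and carotenoid cleavage (9 genes) had no probe.

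The other 4 pathway probes did not pass. A probe shared by HEMB1 and hemb2, genes of the enzyme that joins 2 molecules of 5-aminolevulinic acid, read 0.424, 0.376, 0.0730 and 0.103 in root, against 0, 0, 0.0701 and 0.151 in leaf. The tissues were apart in replicates 1 and 2 and overlapped in replicates 3 and 4, with a log2 difference of 2.04 ± 1.40 (limma, adjusted p = 0.276). That size rested on the values of 0, at 0.83 with a floor at percentile 5, and on the subset, at 5.65 in replicates 1 and 2 alone (limma, adjusted p = 2.37e-03) and -1.57 in replicates 3 and 4 alone. SIRB, the ferrochelatase of siroheme, the cofactor of nitrite and sulphite reduction, read 0.386, 0.476, 0.210 and 0.204 in root, against 0.0957, 0.171, 0.144 and 0.425 in leaf. Leaf replicate 4 lay between the brightest root arrays and the other leaf arrays were below every root array, and the difference was -0.09 ± 0.42 (limma, adjusted p = 0.879).

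AT1G78620 encodes a kinase that returns phytol from chlorophyll to tocopherol synthesis. It read 0.748, 0.624, 0.634 and 0.622 in root, against 0.306, 0.319, 0.305 and 0.481 in leaf. All root arrays were above all leaf arrays as deposited, yet the normalised difference of 0.44 ± 0.20 did not pass (limma, adjusted p = 0.119). On the deposited intensities it was 0.92 and passed (limma, adjusted p = 9.83e-03). It was 0.94 and passed with arrays scaled to a common mean (limma, adjusted p = 0.0113). With centred medians it was 0.09 and did not pass (limma, adjusted p = 0.739). The probe shared by AT5G61670 and AT5G06130, genes of the ORANGE proteins that steady phytoene synthase in carotenoid synthesis, read 0, 0, 0 and 0.0253 in root, against 0.136, 0, 0.00336 and 0.0794 in leaf. It was listed at 0 on 3 of 4 root arrays and 1 of 4 leaf arrays, and its difference of -2.93 ± 1.04 did not pass (limma, adjusted p = 0.0559). That size depended on the floor, at -1.23 with a floor at percentile 5, where it did not pass either (limma, adjusted p = 0.127). With replicates averaged within the subsets the difference passed (limma, adjusted p = 0.0371). This shared probe belongs to the probes with numbers divisible by 6. Of the values there 72.9% were listed at 0, against 11.7% to 16.6% at the other positions. None of the 5 members lies there.

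The single-gene probes with the most similar patterns were ranked by the root mean square difference of log2 values over the 8 arrays, after each probe was centred on its own mean. For HEMA3 the closest of 661 probes was PSBW, a photosystem II subunit gene, at 0.133, followed by AT3G09080 at 0.154 and AT3G04650 at 0.161. The median distance of all candidates was 1.48. PSBW read 70.8 ± 8.33 in root and 25.1 ± 1.24 in leaf (SD, n = 4 each), a log2 difference of 1.72 ± 0.26. The probes of other photosystem and antenna genes ran the opposite way, with PSAN at a mean of 0.309 in root against 4.14 in leaf and LHB1B2 at 0.481 against 22.5. Whether the probe named PSBW measures that transcript was not tested. For AT1G74470 the closest were AT2G37510 at 0.0758, AT2G02590 at 0.134 and AT3G54550 at 0.139. AT2G37510 read 2.08 ± 0.140 in root and 1.33 ± 0.132 in leaf.

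For Z-ISO the closest probes lay farther away, AT4G31930 at 0.386, AT4G29890 at 0.392 and AT3G52550 at 0.429. Like Z-ISO, AT3G52550 was brighter in root, at 0.918 ± 0.413 against 0.143 ± 0.0217 in leaf. CHLM was closest to AT2G39360 at 0.249, AT3G52070 at 0.251 and AT2G40980 at 0.255. The shared HEME1 and HEME2 probe was closest to AT1G24040 at 0.188, AT3G15490 at 0.191 and AT2G39360 at 0.205, so AT2G39360 was near both of the members that did not pass. The points of such a comparison share arrays and normalisation. Candidates were single-gene probes, so the shared HEME1 and HEME2 probe could not be listed. No other single-gene member was among the 3 closest probes of any member.

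**Figure D4:**
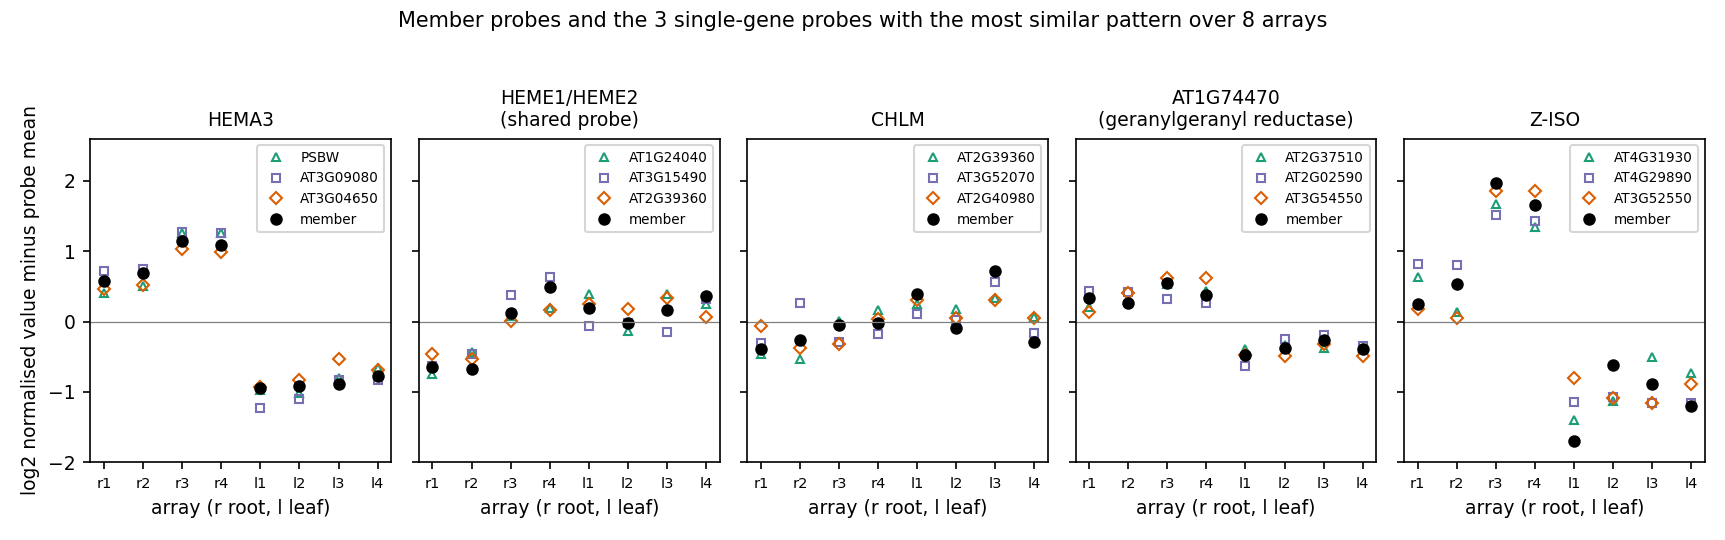
Log2 normalised values minus the mean of each probe, for each member (black) and the 3 single-gene probes with the smallest root mean square difference from it, on root arrays r1 to r4 and leaf arrays l1 to l4. For HEMA3 the symbols nearly coincide, at distances of 0.133 to 0.161, and for Z-ISO they spread more, at 0.386 to 0.429.

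The tissue labels were checked against photosynthesis genes. Of 8 tested leaf marker probes 5 were lower in root, 1, PSBW, was higher and 2 did not pass. A probe for SBPASE was listed at 0 on all arrays. The 2 that did not pass were both annotated to AT1G73110 and RCA. Their means were 0.350 and 0.0201 in root, against 0.192 and 0.00500 in leaf. At the brighter of them all deposited root arrays lay above all leaf arrays. Whether these marker probes measure the genes they are named for was not tested. LHB1B2, an antenna protein gene, read between 0.323 and 0.680 in root and between 19.3 and 25.1 in leaf. The summed intensity of the 9 marker probes ran from 65.6 to 84.4 in root and from 53.5 to 62.8 in leaf, and PSBW alone made up most of the root sum. Without PSBW it ran from 1.85 to 2.56 in root and from 28.9 to 37.6 in leaf. None of 10 root marker genes had a probe. Summed intensity over all probes was 2868 to 3505 in root and 3021 to 3426 in leaf, and 12.8% to 15.1% of root values and 20.0% to 22.8% of leaf values were listed at 0.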

How the data were processed

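A spot intensity was deposited for each probe of 4 root and 4 leaf arrays. How the authors made the intensity values, including background correction and scaling, is not given in the sources used here. Tissue and replicate number came from the sample titles. The titles do not say whether replicates came from separate plants, so p-values measure only the spread between these arrays, which may be technical. The number of arrays limits the precision.

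Probes were named through the platform annotation, by probe number. Of 3439 probes, 692 carried 1 gene, 870 several and 1877 none. Array medians and means differed, so quantile normalisation was applied. Values below 0.00582, the percentile 1 of the deposited values above 0, were raised to it before taking log2, and 141 probes with no higher value on any array were dropped. Root was compared with leaf over all remaining probes with limma 3.58.1 in R 4.3.3 (two-sided, Benjamini-Hochberg adjusted p below 0.05). Differences are root minus leaf. Within-array ratios and ranks were compared by exact permutation tests in scipy 1.17.1, and figures drawn with matplotlib 3.10.9. The test was checked on simulated data.

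Named genes were the members, all probes of the pathway lists, and the 3 single-gene probes with the most similar pattern to each member, with marker genes for the tissue check. The members and lists were chosen with earlier results of these data known. Alternatives covered scaling, floor, filter, blocks, variance model and leaving out each array.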

Additional observations from a re-analysis of the deposited data

Results flagged for a closer look

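In 3 of 18 groups of 4 arrays examined for the 5 members and 4 further pathway probes, 1 array lay far from the others, and chance flags about 5% of such groups. No member was among them. AT1G78620 had such an array in root, where replicate 1 read 0.748 and the gap was 0.899 of the range, and in leaf, where replicate 4 read 0.481 and the gap was 0.920 of the range. For the probe shared by AT5G61670 and AT5G06130 in root, replicate 4 was the only array above 0, at 0.0253, so the gap was 1 times the range. With the other arrays at 0, any value above 0 gives that gap. The 5% therefore does not apply to this group, and the count of 3 is not read against it.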

How the results depend on the processing

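HEMA3 kept its call under all 22 alternatives, with log2 differences from 0.97 to 1.95 and adjusted p from limma of at most 0.0466. AT1G74470 lost its call on the deposited intensities (0.45) and with replicates averaged within subsets (0.75; limma, adjusted p = 0.171), and turned to -0.38 with centred medians. Z-ISO lost its call with the averages (2.20) and in replicates 1 and 2 alone (1.55). The shared HEME1 and HEME2 probe turned to 0.23 as deposited, 0.24 with arrays scaled to a common mean and 0.0452 in replicates 3 and 4 alone, and passed in replicates 1 and 2 alone (-0.75). CHLM turned to 0.0278 as deposited and 0.0475 with a common mean. Without any 1 array CHLM ran from -0.52 to -0.18 and the shared HEME1 and HEME2 probe from -0.59 to -0.19, neither passing. SIRB turned to 0.74 and 0.76 under these 2 scalings, to 0.67 in replicates 1 and 2 alone, and to between 0.05 and 0.24 without root replicate 3 or 4 or leaf replicate 4; without any 1 array it ran from -0.30 to 0.24. The probe of HEMB1 and hemb2 turned to -0.29 with values of 0 set to missing and to -1.57 in replicates 3 and 4 alone (5.65, passing, in replicates 1 and 2 alone; 1.25 to 2.93 without any 1 array). The causes were not tested.

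Of the members, 1 was called higher in root with averaged replicates, and 1 was called lower in replicates 1 and 2 alone. Of all 9 pathway probes, 1 was called higher and 1 lower with the averages, 1 lower in replicates 1 and 2 alone, and between 0 and 1 lower with any 1 array left out, the call without leaf replicate 2 being AT5G61670 and AT5G06130. With any 1 array left out, 3 members were called higher and 0 lower. The share of all probes called was not taken in these settings, so the counts describe these probes only. On quantile normalised values the call changed for the log2 ratios of HEMA3 against Z-ISO (-0.45), the shared HEME1 and HEME2 probe against AT1G74470 (-1.10) and CHLM against AT1G74470 (-1.11). With 1 array left out, their exact test cannot go below 0.0571, so only values were compared. No sign changed. Of the 3 pairs that had not passed, CHLM against AT1G74470 ran from -0.57 to -0.25, the shared HEME1 and HEME2 probe against AT1G74470 from -0.45 to -0.0880, and that probe against CHLM from 0.0111 to 0.45.

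The replicate block left 3 members called higher and 0 lower, with HEMA3 at 1.76 ± 0.19 (limma, adjusted p = 4.47e-03), AT1G74470 at 0.75 (0.0266) and Z-ISO at 2.20 (0.0141). The share of all probes called with this block was not taken either. Deviations of same-numbered root and leaf arrays correlated at r = 0.0901 to 0.126 across probes and those of differently numbered arrays at -0.101 to 0.0493; each array correlated best with its own number, a hint from the data, not the design. Chosen after seeing the data were the subsets alone, the floor taken from normalised values, ranks with 1 array left out, and, for the 4 further pathway probes, the alternatives other than deposited intensities and centred medians.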
